A study of Homo sapiens with 6 samples.

Results

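Genes of glycolysis and other targets of the hypoxia response were examined in the human bladder cancer cell line T24 after knockdown of the long noncoding RNA BLACAT3. A list of 39 genes was set up by name, and 35 of them had values among the 11078 genes of the deposited table. The list was chosen with earlier results of these data known, so its shares beside those of all genes are descriptive only. ALDOC, CA9, CA12 and EGLN3 were not analysed here. The 35 genes comprised 16 glycolytic enzymes, 4 sugar and lactate carriers, 4 regulatory enzymes (PFKFB2, PFKFB3, PFKFB4 and PDK1) and 11 other hypoxia targets. RNA-seq was done on 3 shBLACAT3 libraries, from cells stably carrying a lentiviral short hairpin RNA against BLACAT3, and on 3 shControl libraries, from cells stably carrying a control hairpin. Both groups were selected with puromycin and grown in the same serum-containing medium, and no group was labelled as cultured at low oxygen. The labels give shControl cells the genotype WT, and do not say how many hairpin sequences were used. They do not say either whether replicates were grown separately, so a p-value here reflects library-to-library spread that could be purely technical.

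Glycolysis turns glucose into pyruvate in the cytosol: carriers of the SLC2A family bring the sugar in, hexokinase traps it, and phosphofructokinase commits it to breakdown. Lactate dehydrogenase then turns pyruvate into lactate, which leaves the cell through carriers of the SLC16A family. When oxygen is short, the transcription factor HIF-1, made of HIF1A and ARNT, escapes hydroxylation and degradation and switches on most of these genes, together with genes for mitophagy, pH control and oxygen sensing. Many tumour cells, including bladder cancer cells, use glycolysis heavily even with oxygen present.

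The values were FPKM, fragments scaled for transcript length and library size, so levels of different genes can be set side by side. FPKM carries no counts of reads, and the sequencing depth is therefore unknown. The 6 libraries summed to between 211958 and 226953 FPKM. Between 43 and 65 gene rows per shBLACAT3 library and between 17 and 19 per shControl library were listed at 0. Across the 10008 genes that were tested (mean 1 FPKM or more), 90 genes of shBLACAT3 replicate 2 lay more than 1 log2 unit from both other libraries of its group, against 56 to 71 genes in each of the other libraries. The RNA targeted by the hairpin was not analysed here, so it could not check the labels. Of the epithelial markers KRT7, KRT8 and KRT18 were measured, along with the mesenchymal markers VIM, CDH2, ZEB1 and FN1. KRT19, EPCAM, CDH1 and 7 of 9 urothelial markers, uroplakins included, were not analysed here. The other urothelial markers, PPARG and FOXA1, went opposite ways without overlap (log2 difference 0.26 and -0.29, adjusted p 0.15 and 0.099 in limma). Of 6 leukocyte markers CD68 alone was measured, at 0.0038 to 0.62 FPKM in shBLACAT3 cells and 0.69 to 1.21 FPKM in shControl cells, and of 4 endothelial markers 0 were measured. KRT8 (log2 fold change -1.42) and KRT18 (-0.58) were lower in shBLACAT3 cells and CDH2 (0.45) and FN1 (0.43) higher, each with an adjusted p under 0.05 in limma. The lists did not move one way: KRT7 was at 28.6 to 35.5 FPKM in shBLACAT3 cells and 13.6 to 24.2 FPKM in shControl cells (log2 difference 0.69, adjusted p 0.097), and VIM at 201 to 224 FPKM in shBLACAT3 cells and 221 to 274 FPKM in shControl cells (-0.22, adjusted p 0.19). ZEB1 had a log2 difference of 0.38 and an adjusted p of 0.38 in limma. The part of these markers in the results was not tested.

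In shBLACAT3 cells 6 of the 33 tested genes fell and 1 rose. The genes that fell were the hexokinase HK2, the phosphoglycerate mutase PGAM1, the lactate dehydrogenase subunit LDHA, the regulatory enzyme PFKFB4, the mitophagy receptor BNIP3 and the stress-response gene NDRG1. The gene that rose was PFKFB2, a sister enzyme of PFKFB4. The test was limma on log2(FPKM + 1) with Benjamini-Hochberg adjustment over all 10008 genes at 0.05, and fold changes are shBLACAT3 minus shControl on that scale, where changes of weakly expressed genes look smaller than they are. Over all tested genes 9.37% passed in either direction, 6.8% lower and 2.57% higher, beside 21.2% of the 33 genes. The median log2 fold change was -0.23 over the 33 genes and -0.0025 over all tested genes. The groups did not overlap in 19 of the 33 genes with shBLACAT3 lower (57.6%) and in 2 with shBLACAT3 higher, where 18.6% and 14.1% of all tested genes did so. Of the 7 calls, those of BNIP3 and PFKFB2 were kept whichever library was left out, and those of PGAM1 and LDHA were lost without any of 5 of the 6 libraries. In bulk RNA, fewer cells that express a gene and less RNA per cell cannot be told apart.

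**Figure D1:**
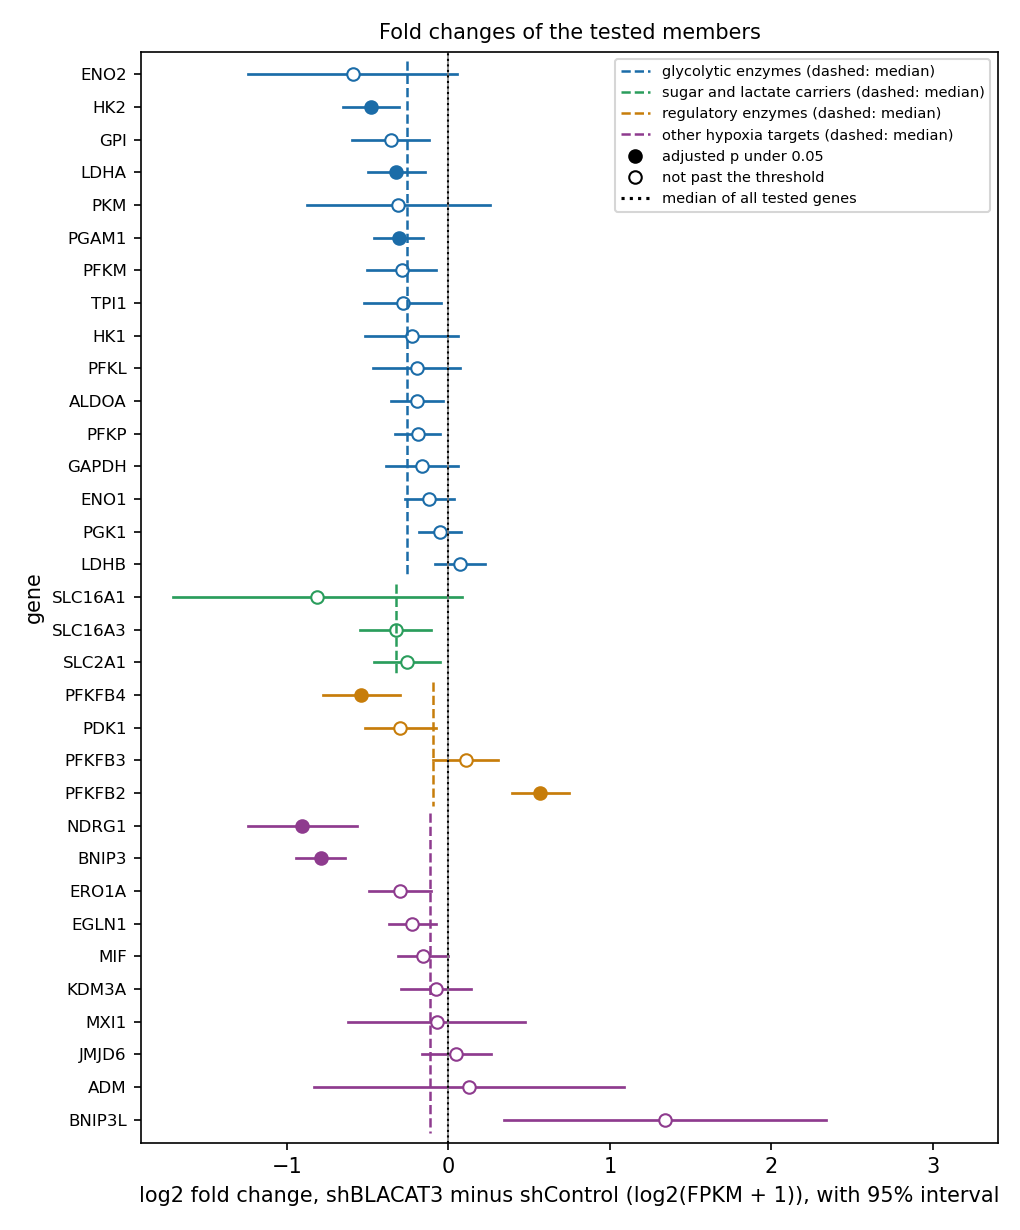
Log2 fold change (shBLACAT3 minus shControl, log2(FPKM + 1)) of the 33 tested genes with the 95% interval from limma, by role; filled points passed an adjusted p under 0.05 and dashed lines are the medians of each role. The 16 enzymes lie between -0.59 and 0.07 and the 10 other hypoxia targets between -0.90 and 1.34.

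The bases before the transcription start of 5 of the genes that fell are shown, because HIF-1 is known to bind a short DNA element whose core is ACGTG or GCGTG. The windows cover the 250 bases before the start, 5′ to 3′ along the gene, from RefSeq (GRCh38.p14), with every match to ACGTG or GCGTG on either strand in capitals (CACGT and CACGC are their other strands). Where RefSeq gives several starts (LDHA and HK2), the window with the most matches is shown.
BNIP3, chr10:131981924-131982173, minus strand: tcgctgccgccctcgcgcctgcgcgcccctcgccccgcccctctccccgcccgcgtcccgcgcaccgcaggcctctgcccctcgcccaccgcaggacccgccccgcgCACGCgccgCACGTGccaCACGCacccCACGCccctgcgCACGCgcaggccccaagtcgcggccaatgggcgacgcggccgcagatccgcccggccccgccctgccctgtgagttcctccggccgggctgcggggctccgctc
LDHA, chr11:18394313-18394562, plus strand: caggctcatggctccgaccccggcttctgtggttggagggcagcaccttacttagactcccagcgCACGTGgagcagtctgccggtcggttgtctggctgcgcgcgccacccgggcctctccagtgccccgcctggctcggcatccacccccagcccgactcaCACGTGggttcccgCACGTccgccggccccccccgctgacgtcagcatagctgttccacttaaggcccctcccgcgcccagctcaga
HK2, chr2:74834920-74835169, plus strand: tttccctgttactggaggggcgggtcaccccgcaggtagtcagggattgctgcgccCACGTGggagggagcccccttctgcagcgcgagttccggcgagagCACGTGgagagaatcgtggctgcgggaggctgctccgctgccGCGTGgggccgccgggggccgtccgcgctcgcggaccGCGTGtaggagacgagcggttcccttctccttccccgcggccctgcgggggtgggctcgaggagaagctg
PFKFB4, chr3:48556804-48557053, minus strand: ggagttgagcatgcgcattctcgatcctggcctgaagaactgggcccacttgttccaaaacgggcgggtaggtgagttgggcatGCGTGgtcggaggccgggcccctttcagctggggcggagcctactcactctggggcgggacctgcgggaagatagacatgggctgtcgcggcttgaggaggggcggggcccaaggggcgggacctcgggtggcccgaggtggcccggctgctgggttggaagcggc
PGAM1, chr10:97427568-97427817, plus strand: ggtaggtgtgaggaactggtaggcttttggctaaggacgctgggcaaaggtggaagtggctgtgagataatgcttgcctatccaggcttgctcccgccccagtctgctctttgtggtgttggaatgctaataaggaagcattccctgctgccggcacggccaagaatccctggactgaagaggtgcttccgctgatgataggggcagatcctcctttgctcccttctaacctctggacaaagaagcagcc
The BNIP3 window held 6 matches within 44 bases, the first of them beginning at position -143 relative to the start. The HK2 window held 6 matches and the LDHA window 5, each with the letters CACGTG at 2 places, and the PFKFB4 window held 1 match. CACGTG, also in the BNIP3 window, reads the same on both strands and counts as 2 matches. The PGAM1 window held 0 matches, which says only that these letters are not in this window. Of 58 windows of 29 of the examined genes, 21 (36.2%) held ACGTG on either strand and 20 (34.5%) held GCGTG. Over all 35116 RefSeq windows, ACGTG stood in 18.5% and GCGTG in 32.2%. Either motif stood in 43.2% of all windows, beside 18 of 36 windows of the enzymes (50%) and 9 of 11 windows of the other hypoxia targets (81.8%). Windows of 1 gene can overlap, so they are not independent, and a match is not evidence of a bound site. BNIP3L, PFKFB2, SLC2A3, NDRG1, JMJD6 and SLC16A1 had no window here.

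Sugar enters the pathway through the hexokinases. HK2, the inducible hexokinase that binds mitochondria, had 4.53, 4.25 and 4.22 FPKM in shBLACAT3 replicates 1, 2 and 3, against 6.78, 6.28 and 6.24 FPKM in shControl replicates 1, 2 and 3. All shBLACAT3 libraries lay under all shControl libraries, and the gene fell by 0.48 log2 units (SE 0.07, limma adjusted p 0.011). The call was lost without shControl replicate 1 (adjusted p 0.059). HK1, the constitutive hexokinase, stood at 25.0 ± 2.94 FPKM in shBLACAT3 cells and 29.5 ± 3.63 FPKM in shControl cells (SD, n = 3), and the groups overlapped (log2 difference -0.23, 95% interval -0.51 to 0.06). HK2 made up 14.1%, 14.2% and 16.2% of the summed hexokinase FPKM in shBLACAT3 replicates 1, 2 and 3, against 21.2%, 16.7% and 16.4% in shControl replicates 1, 2 and 3. The lowest shControl share lay only just above the highest shBLACAT3 share.

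The middle steps of the pathway were lower by small amounts that did not pass over all genes. GPI, which turns glucose 6-phosphate into fructose 6-phosphate, had 28.4, 23.1 and 29.9 FPKM in shBLACAT3 replicates 1, 2 and 3, against 36.04, 34.0 and 34.6 FPKM in shControl replicates 1, 2 and 3. No shBLACAT3 library reached the shControl range, the log2 difference was -0.36 (SE 0.10), and the adjusted p was 0.079 in limma. With each library left out in turn it was 0.045 to 0.22, and GPI passed only without shBLACAT3 replicate 3. PFKP, the most abundant phosphofructokinase here, had 42.2, 40.5 and 41.4 FPKM in shBLACAT3 cells, against 48.9, 44.8 and 48.3 FPKM in shControl cells (adjusted p 0.10 in limma). The highest shBLACAT3 library lay under the lowest shControl library. PFKP made up 74.2% ± 0.31 of the summed phosphofructokinase FPKM in shBLACAT3 cells and 73.1% ± 1.13 in shControl cells (SD, n = 3), a difference of the size of the shControl spread. The other phosphofructokinases, PFKL and PFKM, the aldolase ALDOA and the triose phosphate isomerase TPI1 had log2 differences between -0.29 and -0.19 and adjusted p between 0.10 and 0.33 in limma. For ALDOA, TPI1 and PFKM the groups did not overlap, and for PFKL they did.

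The payoff steps held the most abundant transcripts of the list. GAPDH, which oxidises glyceraldehyde 3-phosphate and ranked 13 by mean FPKM among all tested genes, had 1084, 1083 and 1215 FPKM in shBLACAT3 replicates 1, 2 and 3, against 1338, 1119 and 1340 FPKM in shControl replicates 1, 2 and 3. The groups overlapped, with a log2 difference of -0.16 (95% interval -0.39 to 0.06). ENO1, the ubiquitous enolase, had 457, 428 and 467 FPKM in shBLACAT3 cells, against 492, 463 and 512 FPKM in shControl cells (log2 difference -0.12, 95% interval -0.27 to 0.04). Its highest shBLACAT3 library lay above its lowest shControl library. PGK1, the first enzyme of the pathway to make ATP, had a log2 difference of -0.05 (95% interval -0.18 to 0.08), and its sign turned under quantile normalization (0.0035).

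PGAM1, which moves the phosphate of phosphoglycerate, was the one payoff enzyme before lactate to pass the test. It had 137, 129 and 146 FPKM in shBLACAT3 replicates 1, 2 and 3, against 175, 165 and 172 FPKM in shControl replicates 1, 2 and 3. Every shBLACAT3 library was under every shControl library, and PGAM1 fell by 0.31 log2 units (SE 0.06, limma adjusted p 0.032). Its adjusted p ranged from 0.019 to 0.13 with each library left out in turn, and the call was kept only without shBLACAT3 replicate 3. GENCODE 29 names 13 pseudogenes of PGAM1, 62 of GAPDH, 6 of LDHA and 39 of BNIP3, and how reads shared with such copies were assigned is not stated in any source used, so these levels are uncertain.

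The difference of PKM, the pyruvate kinase, rested on 1 library. The same library enlarged that of ENO2, the enolase first known from neurons. PKM had 154, 87.2 and 167 FPKM in shBLACAT3 replicates 1, 2 and 3, against 151, 162 and 176 FPKM in shControl replicates 1, 2 and 3. Only shBLACAT3 replicate 2 lay below the shControl range. The log2 difference was -0.31 (SE 0.24), and -0.018 without shBLACAT3 replicate 2. ENO2 had 13.0, 5.62 and 11.7 FPKM in shBLACAT3 cells, against 15.2, 15.1 and 14.5 FPKM in shControl cells. All shBLACAT3 libraries of ENO2 were below all shControl libraries, with a log2 difference of -0.59 (SE 0.27, adjusted p 0.22 in limma), or -0.26 without shBLACAT3 replicate 2.

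Of the lactate dehydrogenases, LDHA passed the test and LDHB did not. LDHA, the subunit that favours the making of lactate, had 304, 261 and 302 FPKM in shBLACAT3 replicates 1, 2 and 3, against 350, 363 and 370 FPKM in shControl replicates 1, 2 and 3. The groups did not overlap, and LDHA fell by 0.32 log2 units (SE 0.07, limma adjusted p 0.045). Left-out libraries gave an adjusted p of 0.040 to 0.16, and the call was kept only without shBLACAT3 replicate 3. LDHB, the subunit that favours the use of lactate, had 418, 476 and 451 FPKM in shBLACAT3 cells, against 414, 437 and 427 FPKM in shControl cells, and these groups overlapped. Its log2 difference was 0.07 (95% interval -0.09 to 0.23) and turned to -0.0034 under quantile normalization. LDHA made up 42.1%, 35.4% and 40.1% of the summed FPKM of both subunits in shBLACAT3 replicates 1, 2 and 3, against 45.8%, 45.4% and 46.4% in shControl replicates 1, 2 and 3. The 3 shBLACAT3 shares lay under the 3 shControl shares, and LDHB was the more abundant transcript in every library.

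**Figure D2:**
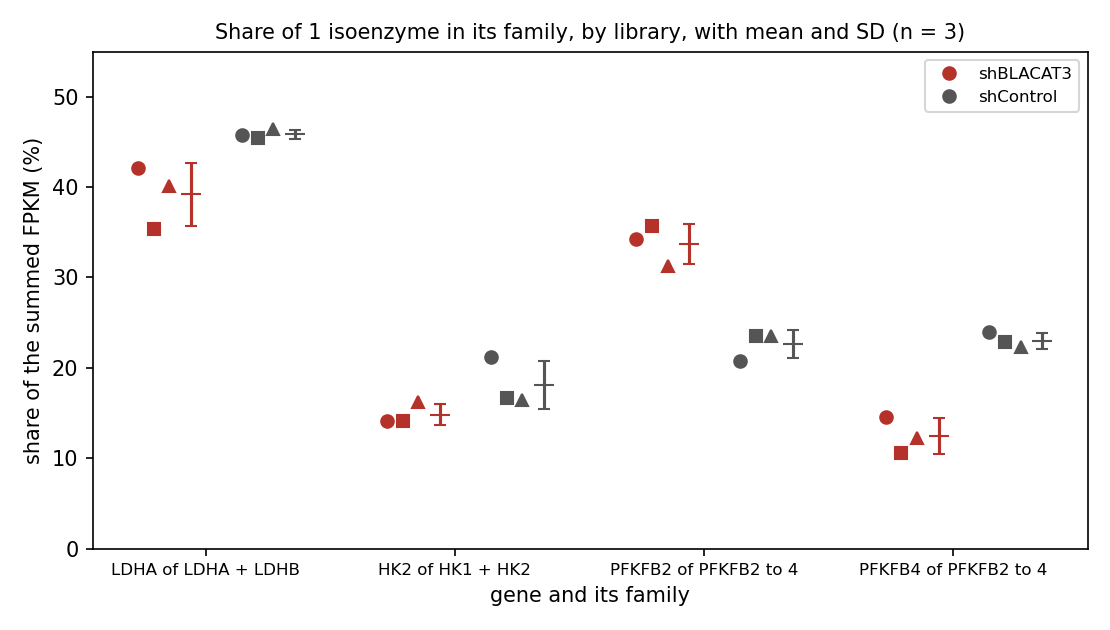
Share of 1 gene in the summed FPKM of its family (percent, vertical axis) for LDHA, HK2, PFKFB2 and PFKFB4, by library (circle, square and triangle for replicates 1, 2 and 3), with mean and SD. LDHA averages 39.2% in shBLACAT3 cells and 45.9% in shControl cells, PFKFB2 33.7% and 22.6%, and PFKFB4 12.5% and 23.0%.

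Among the carriers, limma called 0 of 3 tested; for 2 of them the p before adjustment was under 0.05. SLC2A1, the main glucose carrier of most cell types, had 11.7, 9.85 and 11.7 FPKM in shBLACAT3 replicates 1, 2 and 3, against 14.1, 12.9 and 13.1 FPKM in shControl replicates 1, 2 and 3 (log2 difference -0.25, adjusted p 0.13 in limma). All shBLACAT3 libraries lay under all shControl libraries. SLC16A3, a lactate exporter induced by hypoxia, had 7.73, 6.74 and 7.82 FPKM in shBLACAT3 cells, against 10.4, 8.75 and 9.61 FPKM in shControl cells (log2 difference -0.33, adjusted p 0.079 in limma). SLC16A1, a lactate and pyruvate carrier, had 27.0, 9.47 and 27.6 FPKM in shBLACAT3 replicates 1, 2 and 3, against 34.4, 34.4 and 35.0 FPKM in shControl replicates 1, 2 and 3. Every shBLACAT3 library was below every shControl library for both lactate carriers, but shBLACAT3 replicate 2 of SLC16A1 stood far under its partners. The log2 difference of SLC16A1 was -0.81 (SE 0.37, adjusted p 0.23 in limma), and without shBLACAT3 replicate 2 it was smaller and passed (-0.33, SE 0.05, adjusted p 0.022). With any other library left out SLC16A1 did not pass (adjusted p 0.14 to 0.40 in limma).

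SLC2A3, a high-affinity glucose carrier, was near the lower limit of the table and was left out of the main test by the filter. It had 0.104, 0.180 and 0.207 FPKM in shBLACAT3 replicates 1, 2 and 3, against 0.539, 0.586 and 0.616 FPKM in shControl replicates 1, 2 and 3. The groups did not overlap. With the filter lowered to a mean of 0.1 FPKM, where 11078 genes were tested, its log2 difference was -0.44 (SE 0.07, adjusted p 0.010 in limma). A gene at such a level can enter the table only through the group in which it is higher.

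The bifunctional enzymes that set fructose 2,6-bisphosphate, the activator of phosphofructokinase, moved in opposite directions. PFKFB2 had 5.07, 5.41 and 5.02 FPKM in shBLACAT3 replicates 1, 2 and 3, against 3.03, 3.20 and 3.23 FPKM in shControl replicates 1, 2 and 3. It rose by 0.57 log2 units (SE 0.07, limma adjusted p 0.0057), without overlap, and stayed past the threshold with any 1 library left out (adjusted p 0.013 to 0.036). PFKFB4, known as a HIF-1 target, had 2.16, 1.6015 and 1.97 FPKM in shBLACAT3 cells, against 3.49, 3.10 and 3.05 FPKM in shControl cells. Its groups did not overlap either, and it fell by 0.54 log2 units (SE 0.10, limma adjusted p 0.023). The PFKFB4 call was lost without shControl replicate 1, 2 or 3, with an adjusted p of up to 0.094. PFKFB3, the form with the highest ratio of kinase to phosphatase activity, had 7.59, 8.15 and 9.03 FPKM in shBLACAT3 cells, against 8.04, 7.28 and 7.43 FPKM in shControl cells, which overlap (log2 difference 0.11, 95% interval -0.10 to 0.31).

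PFKFB2 and PFKFB4 held like shares of the family in shControl cells and lay apart in shBLACAT3 cells. PFKFB2 made up 33.7% ± 2.22 of the summed FPKM of the 3 genes in shBLACAT3 cells and 22.6% ± 1.59 in shControl cells (SD, n = 3). PFKFB4 made up 12.5% ± 2.0 in shBLACAT3 cells and 23.0% ± 0.88 in shControl cells, while PFKFB3 made up 53.8% ± 2.57 in shBLACAT3 cells and 54.35% ± 0.81 in shControl cells. PFKFB3 was the most abundant of them in every library. PDK1, the kinase that shuts pyruvate dehydrogenase, had 3.75, 3.54 and 2.996 FPKM in shBLACAT3 replicates 1, 2 and 3, against 4.59, 4.32 and 4.37 FPKM in shControl replicates 1, 2 and 3. The groups did not overlap, and the log2 difference was -0.30 (SE 0.09, adjusted p 0.10 in limma).

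**Figure D3:**
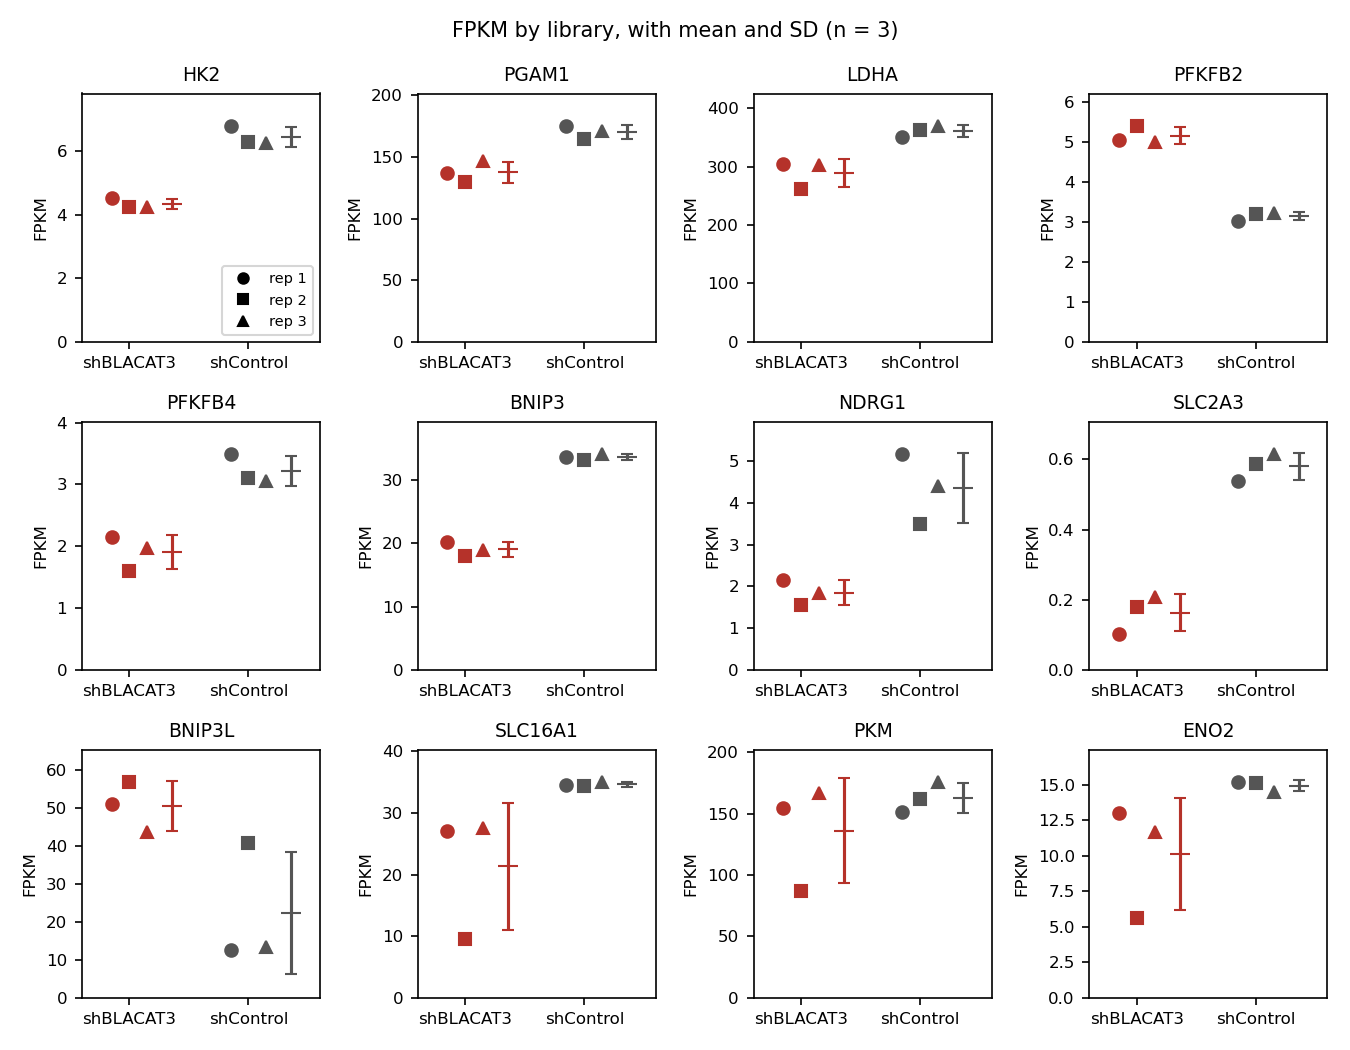
FPKM of 12 genes in each library (circle, square and triangle for replicates 1, 2 and 3; bars are mean and SD, n = 3), with vertical axes that start at 0. BNIP3 is at 17.9 to 20.2 FPKM in shBLACAT3 cells and 33.15 to 34.1 FPKM in shControl cells, while shBLACAT3 replicate 2 stands apart for SLC16A1, PKM and ENO2 and shControl replicate 2 for BNIP3L.

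Outside glycolysis, the smallest adjusted p was that of BNIP3, a mitochondrial outer membrane protein that recruits the autophagy machinery. BNIP3 had 20.2, 17.9 and 18.9 FPKM in shBLACAT3 replicates 1, 2 and 3, against 33.6, 33.15 and 34.1 FPKM in shControl replicates 1, 2 and 3. The ranges were far apart compared with the spread in either group, and BNIP3 fell by 0.79 log2 units (SE 0.06, limma adjusted p 0.00082, 0.0031 to 0.0079 with each library left out). Its paralog BNIP3L, also a mitophagy receptor, had 50.9, 56.8 and 43.7 FPKM in shBLACAT3 cells, against 12.7, 40.8 and 13.4 FPKM in shControl cells. The groups did not overlap, with shBLACAT3 higher, but shControl replicate 2 lay close to the shBLACAT3 range. BNIP3L had a log2 difference of 1.34 (SE 0.42) and did not pass (adjusted p 0.10 in limma), while without shControl replicate 2 it was 1.86 (adjusted p 0.0014). With any other library left out BNIP3L did not pass (adjusted p 0.12 to 0.27 in limma). BNIP3 made up 28.5%, 24.01% and 30.1% of the summed FPKM of the pair in shBLACAT3 replicates 1, 2 and 3, against 72.5%, 44.8% and 71.7% in shControl replicates 1, 2 and 3.

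NDRG1, a stress-response gene used as a marker of hypoxia, had 2.15, 1.56 and 1.85 FPKM in shBLACAT3 replicates 1, 2 and 3, against 5.18, 3.50 and 4.41 FPKM in shControl replicates 1, 2 and 3. The ranges of the groups were separate, and NDRG1 fell by 0.90 log2 units (SE 0.14, limma adjusted p 0.012). The mean FPKM of NDRG1 fell by 57.5% in shBLACAT3 cells. The call was lost by a small margin without shControl replicate 3 (adjusted p 0.051).

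ERO1A and EGLN1 were lower without passing over all genes. ERO1A, which oxidises protein disulfide isomerase in the endoplasmic reticulum, had 23.9, 26.7 and 22.9 FPKM in shBLACAT3 replicates 1, 2 and 3, against 31.0, 31.8 and 28.2 FPKM in shControl replicates 1, 2 and 3 (log2 difference -0.30, adjusted p 0.068 in limma). Without shBLACAT3 replicate 2 it passed (-0.36, adjusted p 0.047), and with any other library left out it did not (adjusted p 0.10 to 0.21). EGLN1, the prolyl hydroxylase that marks HIF1A for degradation, had 12.6, 12.2 and 11.8 FPKM in shBLACAT3 cells, against 14.7, 14.5 and 14.1 FPKM in shControl cells (log2 difference -0.22, adjusted p 0.072 in limma). In both genes every shBLACAT3 library was below every shControl library. MIF, a cytokine with tautomerase activity, had 145, 146 and 158 FPKM in shBLACAT3 cells, against 177, 165 and 159 FPKM in shControl cells, and its groups stopped just short of overlapping (log2 difference -0.16, adjusted p 0.19 in limma). GENCODE 29 has an antisense gene, MIF-AS1, over MIF, and the strand setting of the counting is not stated in any source used. Genes on the opposite strand also overlap PFKFB2 (YOD1), BNIP3L (PNMA2), SLC16A1 (SLC16A1-AS1), BNIP3 (2 antisense genes) and HK2 (a noncoding RNA gene), among others. On the same strand, UCN2 overlaps PFKFB4, LRRC23 overlaps ENO2 and ATP7A overlaps PGK1, which no strand setting resolves. Protein-coding genes with clone-based names also overlap GPI, ALDOA, LDHB and MIF on the same strand. Reads may be shared at all these genes, so their levels are uncertain.

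The remaining hypoxia targets did not separate the groups. ADM, the vasodilator peptide adrenomedullin, had 4.48, 9.61 and 4.23 FPKM in shBLACAT3 replicates 1, 2 and 3, against 9.58, 3.67 and 3.72 FPKM in shControl replicates 1, 2 and 3. A single library of each group stood far above its partners. MXI1, an antagonist of MYC, had 4.65, 4.64 and 4.10 FPKM in shBLACAT3 cells, against 2.90, 5.77 and 6.16 FPKM in shControl cells. The histone demethylase gene KDM3A (log2 difference -0.08, 95% interval -0.29 to 0.14) and the hydroxylase gene JMJD6 (0.05, 95% interval -0.16 to 0.26) overlapped between groups as well. ANKRD37, an ankyrin repeat gene below the filter, had 1.01, 0.797 and 0.581 FPKM in shBLACAT3 cells and 1.43, 0.735 and 1.37 FPKM in shControl cells, and it did not pass with the filter lowered to 0.1 (adjusted p 0.32 in limma).

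**Figure D4:**
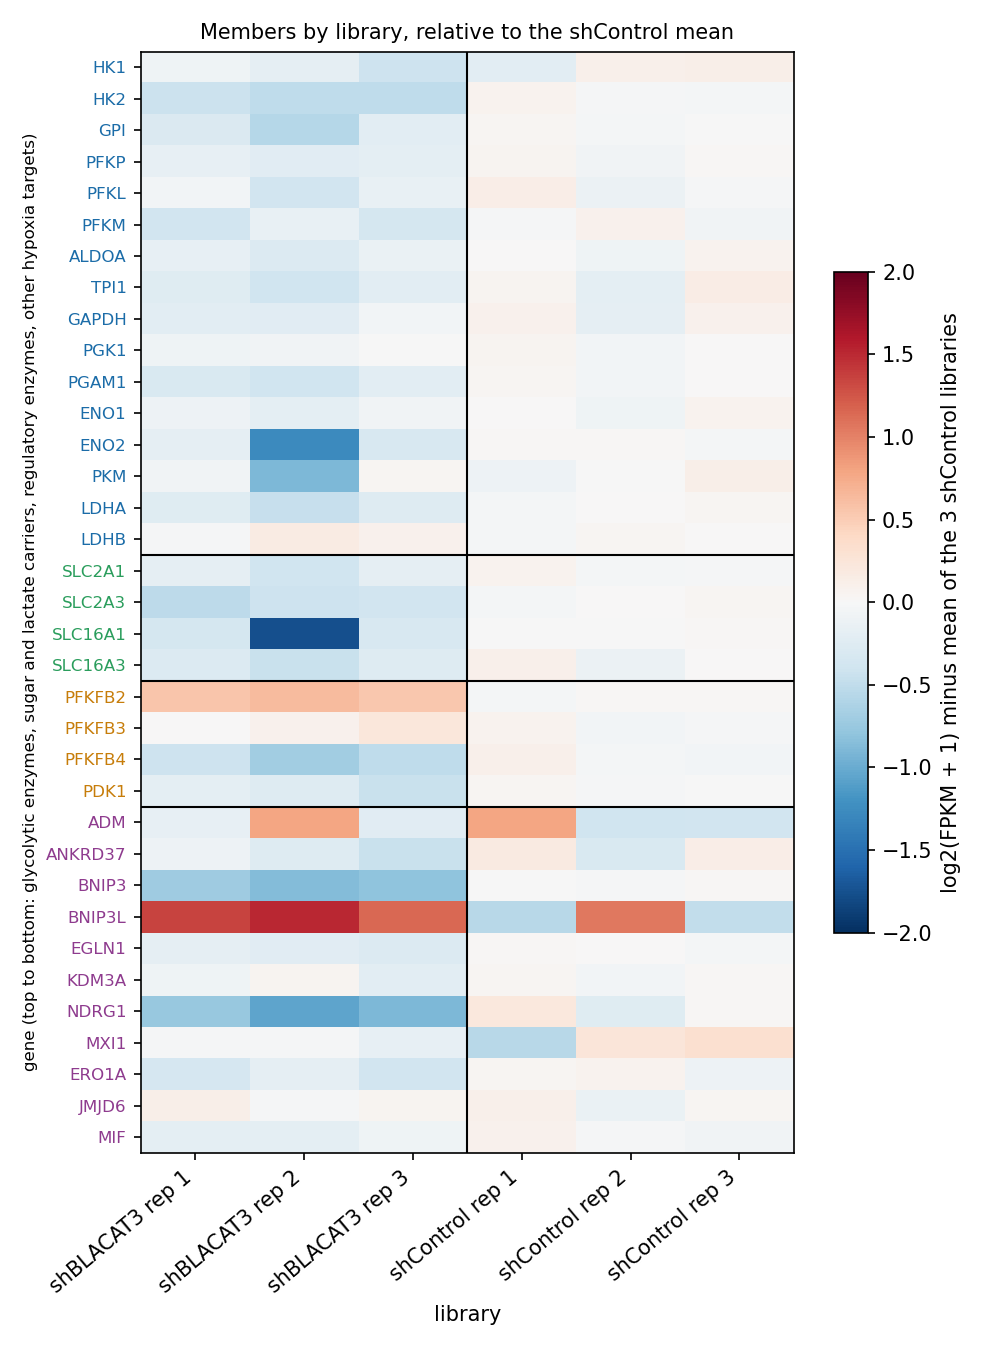
Colour gives log2(FPKM + 1) minus the mean of the 3 shControl libraries for the 35 measured genes (rows, by role) in each library (columns; blue lower, red higher). The enzymes and carriers are mostly pale blue in all 3 shBLACAT3 libraries, with SLC16A1, ENO2 and PKM darkest in replicate 2, while PFKFB2 and BNIP3L are red.

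Set against each other, the glycolytic enzymes covered a narrower range of fold changes than the other hypoxia targets. Of the 16 enzymes 15 had a log2 fold change below 0 (93.8%), between -0.59 and 0.07, with a median of -0.25. Of the 10 tested hypoxia targets 7 were below 0 (70%), between -0.90 and 1.34, with a median of -0.12. Over all tested genes 50.6% were below 0. Past the threshold were 3 of 16 enzymes (18.8%) and 2 of 10 hypoxia targets (20%), all lower, beside 6.8% of all genes. With shBLACAT3 lower, the groups did not overlap in 9 enzymes (56.2%) and 5 hypoxia targets (50%), beside 18.6% of all genes. With shBLACAT3 higher, they did not overlap in 0 enzymes and 1 hypoxia target, beside 14.1% of all genes. Only ENO2 among the enzymes moved by more than 0.5 on the log2 scale, against BNIP3, NDRG1 and BNIP3L among the hypoxia targets. Of these, ENO2 and BNIP3L did not pass the test (adjusted p 0.22 and 0.10 in limma). The upper end of the hypoxia targets was BNIP3L alone, and the next highest was ADM at 0.13. ENO2, the lower end of the enzymes, was at -0.26 without shBLACAT3 replicate 2. The difference between the gene groups was not tested. By library, the median deviation of the enzymes from the shControl mean was -0.17, -0.33 and -0.20 in shBLACAT3 replicates 1, 2 and 3, against 0.03, -0.04 and 0.02 in shControl replicates 1, 2 and 3. For the hypoxia targets it was -0.17, -0.10 and -0.22 in shBLACAT3 libraries and 0.03, -0.02 and -0.0063 in shControl libraries. All shBLACAT3 libraries were thus below all shControl libraries in both gene groups, with shBLACAT3 replicate 2 lowest for the enzymes and highest, among the shBLACAT3 libraries, for the hypoxia targets.

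A second list held further targets of the hypoxia response. It too was chosen with earlier results of these data known, so its share of calls is no separate support for the first list. Of 31 tested genes 9 fell and 1 rose in limma (32.3% called, beside 9.37% of all genes), with a median log2 fold change of -0.25. RAB20, a small GTPase of vesicle traffic, had 2.61, 1.68 and 1.99 FPKM in shBLACAT3 replicates 1, 2 and 3, against 4.19, 4.50 and 4.33 FPKM in shControl replicates 1, 2 and 3 (log2 fold change -0.80, SE 0.12, adjusted p 0.011 in limma). P4HA1, a collagen prolyl hydroxylase, fell by 0.64 log2 units. The groups did not overlap in either gene. STC2, a secreted glycoprotein that the stress factor ATF4 also induces, had 60.2, 54.1 and 57.4 FPKM in shBLACAT3 cells, against 33.0, 34.2 and 35.0 FPKM in shControl cells, and rose by 0.73 (SE 0.06). The calls of RAB20, P4HA1 and STC2 were kept whichever library was left out. Also lower were ANGPTL4, P4HA2, PLOD1, LOX, BHLHE40 and TMEM45A, and of these 6 only BHLHE40 kept its call in every such fit. TMEM45A averaged 0.814 FPKM in shBLACAT3 cells and 1.39 FPKM in shControl cells, so it passed the filter only through the higher group. With 1 library left out the number of lower genes in this list was 5 to 8, and it was 5 without shBLACAT3 replicate 1 or 2.

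Most genes of the machinery that controls HIF overlapped between the groups, as did most of all tested genes. Of 18 tested genes 1 fell and 0 rose (5.56% called, beside 9.37% of all tested genes). The groups overlapped in 15 of the 18 genes, beside 6728 of all 10008 tested genes, so this count does not set the list apart. The median log2 fold change was -0.025. The gene that fell was ARNT2, a partner subunit best known from neural tissue, with 0.906, 0.913 and 0.824 FPKM in shBLACAT3 replicates 1, 2 and 3, against 2.54, 2.32 and 2.29 FPKM in shControl replicates 1, 2 and 3. ARNT2 averaged under 1 FPKM in shBLACAT3 cells, so it passed the filter only through shControl cells. Its groups lay well apart, and it fell by 0.85 log2 units (SE 0.07, limma adjusted p 0.0012). HIF1A, named here after its values were seen because it encodes the oxygen-regulated subunit, had 30.3, 33.6 and 24.8 FPKM in shBLACAT3 cells, against 48.5, 37.9 and 30.6 FPKM in shControl cells. These groups overlapped (log2 difference -0.38, 95% interval -0.81 to 0.06, adjusted p 0.25 in limma), and mRNA says nothing of the stability of the protein.

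In neighbouring branches of sugar metabolism 0 to 3 genes per list were called, beside 9.37% of all tested genes (6.8% lower and 2.57% higher). Such small counts cannot tell the lists apart, and a difference between them was not tested. Of 13 further glycolysis genes PGM1, which links glycogen to glycolysis, was the only one called (7.69%), at 8.52, 7.92 and 8.76 FPKM in shBLACAT3 replicates 1, 2 and 3, against 12.1, 12.5 and 12.6 FPKM in shControl replicates 1, 2 and 3 (log2 fold change -0.51, SE 0.07, adjusted p 0.0061 in limma). Of 11 glycogen genes 3 fell and 0 rose (27.3%): STBD1, a glycogen-binding protein, by 0.57, GYS1, the glycogen synthase, by 0.42, and PYGL, a glycogen phosphorylase, by 0.26 on the log2 scale. STBD1 and PGM1 kept their calls whichever library was left out, while GYS1 and PYGL kept theirs only without shBLACAT3 replicate 3. Of 13 genes that bring pyruvate into the mitochondrial cycle limma called 0, with 3 under 0.05 before adjustment, and 11 of the 13 had a log2 difference above 0 (median 0.15). Without shBLACAT3 replicate 1, 1 of them passed as higher, and with any other library left out 0 did. The malic enzyme ME1 (log2 difference 0.23, adjusted p 0.11 in limma) and the pyruvate dehydrogenase subunit PDHA1 (0.16, adjusted p 0.14) had the smallest p of that list, and in both every shBLACAT3 library was above every shControl library.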

How the data were processed

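The table the authors deposited held 11081 gene rows and 1 column per library. Its unit was read as FPKM from the deposited values and from the tools named per the submitters' processing notes (cutadapt, HISAT2 2.1.0 and StringTie), since the file header names none. The libraries were stranded, per the labels' protocols, and for the genome build, annotation and filters the sources used here give nothing. The higher group mean was at least 0.5 FPKM in every row. Columns headed NC were read as shControl and SH as shBLACAT3. A symbol was found for 11026 rows in the supplied name table or GENCODE 29, and rows sharing a symbol were summed.

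The 10008 genes averaging 1 FPKM or more were fitted on log2(FPKM + 1), a pseudocount of 1, by limma 3.58.1 (R 4.3.3). The model held group alone, with a mean-variance trend. The fit was run on simulated independent normal values with known changes, which cannot show that the model suits these data. Because FPKM holds no counts, no count test and no counting interval is given. Members, gene lists and tests were chosen with earlier results of these data known. Values in every library are given for members past the threshold or under the filter, and in each role for the 2 most abundant and the 2 with the smallest p that did not pass. LDHB, PKM, ENO2, ADM and MXI1 were added after their values were seen. From each list of other genes, up to 4 called genes with the largest fold change, or the 2 with the smallest p, were described, apart from 1 that is not reported here. Alternatives were the replicate block, pseudocount, filter, scaling, trend, array weights and each library left out. Figures were drawn with matplotlib 3.10.9.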

Additional observations from a re-analysis of the deposited data

How the results depend on the processing

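The direction of both gene groups held under all 14 alternatives, not all of which could change it. The replicate block and the fit without the trend leave every fold change as it was. The lowered filter and no filter gave the same fit, over 11078 genes, and added no enzyme. The median log2 fold change of the enzymes was -0.28 to -0.20 and that of the other hypoxia targets -0.17 to -0.11, where it moved most without shBLACAT3 replicate 2 (-0.173) or shControl replicate 1 (-0.163). The number of members called lower was 2 to 7 and of members called higher 1 to 2 with 1 library left out. Enzymes called lower numbered 0 to 4 and other hypoxia targets called lower 1 to 3 in those fits. Under the replicate block, median scaling and the fit without the trend 1 enzyme was called lower, HK2. Over all genes, 302 to 732 were called lower and 85 to 583 higher with 1 library left out, and 451 lower and 161 higher with the replicate block. Same-numbered libraries had correlations of 0.10, 0.12 and 0.09 between their deviations, and differently numbered ones of -0.116 to 0.024. Each library thus correlated best with its own number. The main model did not pair them because the labels state no shared batch or day, and the fit with the replicate block is given beside it. The sign turned for PGK1 (0.00349) and LDHB (-0.00339) under quantile normalization, which shifted the median of all genes by 0.026. It also turned for ADM without shBLACAT3 replicate 2 (-0.201), shControl replicate 2 (-0.0713) or shControl replicate 3 (-0.0637), over a range of -0.201 to 0.519 with each library left out, for MXI1 without shControl replicate 2 (0.0472) or 3 (0.0875), over a range of -0.35 to 0.0875, and for JMJD6 without shControl replicate 2 (-0.02). None of these genes passed in any of those fits. The cause of these changes was not tested. Depth is unknown, so how far it limits the genes near 1 FPKM cannot be told.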

Other observations

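The 16 enzymes summed to 3082, 2949 and 3282 FPKM in shBLACAT3 replicates 1, 2 and 3, against 3541, 3268 and 3636 FPKM in shControl replicates 1, 2 and 3, so that the highest shBLACAT3 sum lay just above the lowest shControl sum. As a share of all listed FPKM this was 1.45%, 1.37% and 1.45% in shBLACAT3 libraries and 1.605%, 1.48% and 1.615% in shControl libraries, without overlap.

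A pair of genes from the neighbouring lists varied widely within groups and is named after its values were seen. MYC had 2.77, 1.53 and 31.3 FPKM in shBLACAT3 replicates 1, 2 and 3 and 20.2, 2.93 and 3.37 FPKM in shControl replicates 1, 2 and 3. The citrate synthase gene CS had 9.49, 42.1 and 50.4 FPKM in shBLACAT3 replicates 1, 2 and 3 and 11.1, 13.4 and 11.9 FPKM in shControl replicates 1, 2 and 3.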
